A study of Homo sapiens with 18 samples.

Results

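The vacuolar proton pump (V-ATPase) was followed through 10 of its subunit genes, ATP6V0B, ATP6V0C, ATP6V0D1, ATP6V0E1, ATP6V1A, ATP6V1B2, ATP6V1D, ATP6V1E1, ATP6V1F and ATP6V1H, taken by symbol from 57120 gene symbols in a TruSeq count table and 44267 in a PLATE-seq count table. All 10 symbols were in both tables. After a filter on low counts 10 remained in TruSeq and 9 in PLATE-seq, where ATP6V0C had no counts. The members were chosen by measured values of these data: ATP6V0B was past the threshold in the PLATE-seq knockout clones against the control, and the other subunits were set beside it. Values of the clones against the control, of control siRNA against the control and of the clones against control siRNA are therefore given as a description, and any calls in them support nothing. The tests below use the TruSeq libraries, the siRNA pair, and the differences among the clones, which use the same knockout libraries but not the contrast with the control.

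All 18 libraries came from MDA-MB-436, an established triple-negative human breast adenocarcinoma line grown in DMEM with serum, in 8 groups. The study asked what loss of SMARCAL1, an enzyme that reanneals DNA strands at stalled forks, does to the RNA of these cells. The TruSeq libraries, made from total RNA with a stranded kit, were 3 of SMARCAL1 knockout clone 1 (SL1KO) and 3 of the control (CTRL). The PLATE-seq libraries, from a plate format that sequences messenger RNA of lysed cells, were 2 each of knockout clones 1, 2 and 3, siRNA against SMARCAL1, control siRNA and the control. Each knockout line was 1 clone, so libraries of a clone are not independent knockouts. The titles of the 12 PLATE-seq samples name MDA-MB-436, while their cell line tags run on from sample to sample up to MDA-MB-448. All were taken as MDA-MB-436.

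The V-ATPase is a rotary machine that uses ATP to pump protons into lysosomes, endosomes, the Golgi and secretory vesicles. Its V1 sector sits in the cytosol and splits ATP, and its V0 sector spans the membrane and carries the protons on a turning ring of proteolipids. In cancer cells the pump acidifies lysosomes, and at the lysosome surface it takes part in amino acid signalling to mTORC1.

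Library totals were 10257584 to 19270648 counts in TruSeq and 807861 to 3068887 in PLATE-seq. In PLATE-seq, clone 2 had 920828 and 960428 counts, and the control, the shallowest group, 890402 and 807861. Mitochondrial genes took 24.6% to 34.3% of PLATE-seq counts and at most 0.891% of TruSeq counts. The TruSeq libraries split on detected symbols: 1 knockout and 2 control libraries had 36042 to 39068, and 2 knockout and 1 control libraries had 28621 to 30653. The libraries with many symbols were the shallower ones, at 10257584 to 12172405 counts, with 0.637% to 0.891% of them mitochondrial. Those with few had 15689281 to 19270648 counts, with 0.302% to 0.370% mitochondrial. No label explains the split, and the part of depth in it was not tested. Of 4 mesenchymal markers, VIM, CD44 and CAV1 were high in all TruSeq libraries, with CD44 at 409 to 470 CPM (CPM, counts scaled to library size). SPARC had 4.06 to 6.16 CPM in the knockout and 83.7 to 92.1 CPM in the control. Of 5 luminal markers, ESR1 had at most 0.969 CPM in TruSeq, PGR at most 0.404, GATA3 at most 1.02 and FOXA1 1.99 to 3.39. ERBB2, the remaining luminal marker, was higher, at 37.3 to 53.5 CPM in all TruSeq libraries. The 2 assays ranked genes only loosely alike, with a Spearman rho of 0.53 over 8177 genes kept in both, which are not independent replicates. KRT8 had 514 to 870 CPM in TruSeq and 8.77 to 32.2 in PLATE-seq, whereas KRT5 had at most 0.397 CPM in TruSeq and 9.28 to 46.5 in PLATE-seq. The gene models behind the PLATE-seq symbols are not given in the sources used here, so a PLATE-seq value belongs to a gene only as far as the symbol in that table does, ATP6V0B included. SMARCAL1 itself had 0 counts in both SMARCAL1 siRNA libraries, against 7 and 8 counts in the control siRNA libraries. Against the PLATE-seq control its log2 fold change was 0.48 in clone 1, 1.62 in clone 2, 2.46 in clone 3 and 1.66 with control siRNA. None of these passed the threshold, and SMARCAL1 had at most 44 counts in a PLATE-seq library. In TruSeq SMARCAL1 had 13.3, 14.7 and 14.0 CPM in knockout clone 1, against 13.9, 14.0 and 16.1 CPM in the control. A knockout need not lower the transcript, so this does not check the genotype.

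ATP6V0B, which encodes the c'' proteolipid of the membrane ring, was the member whose level varied most across the PLATE-seq libraries, by 4.47-fold between the lowest and the highest. This rank rests on the control libraries behind its choice. Outside the control ATP6V0B ran from 438 to 959 CPM, and ATP6V1H, ATP6V1E1, ATP6V0D1 and ATP6V1F had wider fold ranges. ATP6V1H ran from 17.4 to 76.1 CPM there. The ATP6V0B gene lies on the plus strand of chromosome 1 from 43974487 to 43978295 (GENCODE release 29, GRCh38), and 8.54% of its exon bases lie opposite AL357079.2, which had at most 5 TruSeq counts. ATP6V0B had 531 and 596 CPM in knockout clone 1, 438 and 449 CPM in clone 2, 743 and 854 CPM in clone 3, 959 and 744 CPM with SMARCAL1 siRNA, 923 and 594 CPM with control siRNA, and 215 and 279 CPM in the control. Both control libraries lay below the other 10, which began at 438 CPM. The counts behind these values were 421 to 2814 in the other libraries and 194 and 225 in the control. The part of depth, lowest in the control, was not tested. In bulk RNA, fewer cells of a type and less RNA per cell cannot be told apart.

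Ordered by their means, the groups ran downward from 852 ± 152 CPM (SD, n = 2 each) with SMARCAL1 siRNA through 799 ± 78.8 in clone 3, 758 ± 233 with control siRNA, 563 ± 46.4 in clone 1 and 443 ± 7.69 in clone 2 to 247 ± 45.6 in the control. Neighbours from SMARCAL1 siRNA down to clone 1 overlapped, whereas clone 1, clone 2 and the control did not overlap with each other. ATP6V0B made up 17.3% to 28.3% of the counts of the 9 measured members in the other 10 libraries, against at most 12.2% in the control libraries. The summed level of the other 8 members was 1735 to 2166 CPM in the clones, 2500 to 2840 CPM in the siRNA libraries, and 1737 and 2012 CPM in the control.

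**Figure D1:**
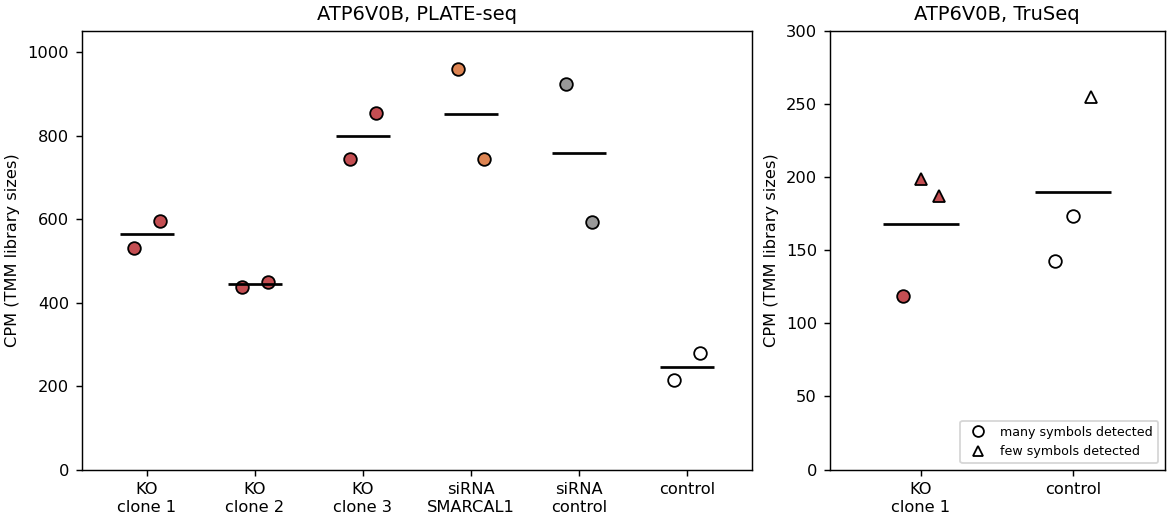
ATP6V0B level in CPM by group in PLATE-seq (left, 2 libraries a group) and TruSeq (right, 3 a group). Each symbol is a library and each line a group mean, and in TruSeq circles and triangles mark libraries with many and few detected symbols. The 2 PLATE-seq control libraries, at 215 and 279 CPM, sit below the other 10, whereas in TruSeq the groups overlap.

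The promoters of members were read to show the sequence around the start of ATP6V0B. RefSeq windows of 250 bases before to 50 after a gene start were found for 6 of the 10 members, with 8 windows in all. The letters CACGTG, the core shared by binding sites of the MiT/TFE factors (TFEB, TFE3, MITF) and of other factors such as MYC and USF, read the same on both strands and were in 7.26% of all 35116 windows. Among the members they were in ATP6V0B, at 57 and at 39 bases before the start counted to the first base of the match, and in ATP6V0D1, which encodes subunit d, 59 bases before the start. The longer TCACGTGA, which contains those letters, was in 0.98% of windows and among the members in ATP6V0D1. The bases before both starts are shown 5′ to 3′ on the strand of the gene (GRCh38.p14, chr1:43974710-43974959 on the plus strand and chr16:67481158-67481407 on the minus strand), with CACGTG in capitals. The RefSeq start of ATP6V0B used here, 43974960, lies inside the gene as GENCODE release 29 draws it, which begins at 43974487. That of ATP6V0D1, 67481157, also lies inside its GENCODE gene, which begins at 67481237 on the minus strand. The matches before both RefSeq starts thus lie within the GENCODE genes. A match is a description of the letters and not a site in use.
ATP6V0B: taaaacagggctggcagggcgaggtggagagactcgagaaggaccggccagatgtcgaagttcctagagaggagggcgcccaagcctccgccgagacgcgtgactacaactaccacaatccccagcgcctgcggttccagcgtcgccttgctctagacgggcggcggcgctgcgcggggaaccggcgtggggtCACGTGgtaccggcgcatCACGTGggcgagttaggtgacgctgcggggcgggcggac
ATP6V0D1: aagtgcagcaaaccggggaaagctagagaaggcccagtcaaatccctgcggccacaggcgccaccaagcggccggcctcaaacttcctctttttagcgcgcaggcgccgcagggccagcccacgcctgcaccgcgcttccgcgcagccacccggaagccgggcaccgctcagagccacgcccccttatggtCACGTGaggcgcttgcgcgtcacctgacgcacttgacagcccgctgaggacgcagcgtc

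Set beside the other subunits, the fitted log2 fold change of ATP6V0B was apart from theirs in the knockout contrast that led to its choice. Over the mean of the 3 clones against the control it was 1.24, while the other 8 members had a median of 0.05 and a range of -0.82 to 0.37, and all 8595 genes a median of -0.01. By clone, ATP6V0B had 1.19 in clone 1, 0.85 in clone 2 and 1.70 in clone 3, and the medians of the other 8 were 0.06, -0.10 and 0.11. At an adjusted p under 0.05, 17 of 8595 genes (0.198%) were called over the mean of the clones. ATP6V0B was 1 of them and the other 8 members were not, a count fixed by the choice.

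The same gene was high with siRNA of either kind. Control siRNA against the control, which shares the 2 control libraries with the knockout contrast, gave ATP6V0B 1.62, with a median of 0.14 and a range of -0.91 to 0.72 for the other 8. In that contrast 1 of 8595 genes (0.0116%) was called, ATP6V0B, a call that rests on the control libraries behind its choice and was lost without control siRNA replicate 1. The knockout clones against control siRNA gave -0.38 for ATP6V0B, with a median of -0.19 and a range of -0.75 to 0.46 for the other 8. Without control siRNA replicate 1 this became -0.03, and without replicate 2 it became -0.66. The gap to the control was thus present in the clones, with SMARCAL1 siRNA and with control siRNA. The mean of the clones was not above the level with control siRNA. The mean of clone 3 was, but its libraries, at 743 and 854 CPM, lay between those of control siRNA, at 594 and 923 CPM.

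**Figure D2:**
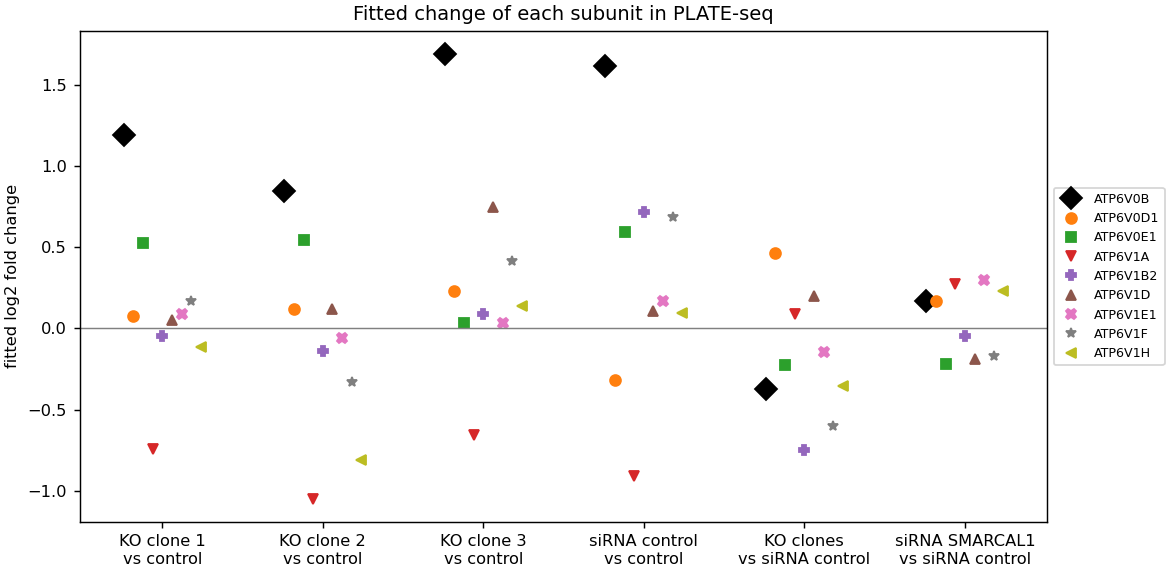
Fitted log2 fold change (y axis) of the 9 members measured in PLATE-seq in 6 contrasts (x axis). ATP6V0B, the black diamonds, lies above the other members in the 4 contrasts against the control, at 0.85 to 1.70, and within their range in the 2 contrasts against control siRNA, at -0.38 and 0.17.

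Of the other V0 members, ATP6V0D1 and ATP6V0E1 did not share the order of groups seen for ATP6V0B, although the ATP6V0E1 control was also low. For ATP6V0C no order could be read. ATP6V0C, the c proteolipid that forms most of the ring, had 0 counts in all 12 PLATE-seq libraries, which allows up to 0.911 to 3.72 CPM per library for counting error. In TruSeq ATP6V0C had 266 to 689 counts, and 72.1% of its 1498 exon bases are shared with AC093525.2 and AC093525.1 on the same strand in GENCODE release 29, so its counts are uncertain in both assays. AC093525.2 alone shares 57.5% of them and had 303 to 726 TruSeq counts.

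ATP6V0D1, whose product couples the ring to the central stalk, had 47.5 and 25.7 CPM in clone 1, 42.6 and 32.8 in clone 2, 25.8 and 55.0 in clone 3, 35.4 and 26.7 with SMARCAL1 siRNA, 33.3 and 22.5 with control siRNA and 31.0 and 38.5 in the control. All 6 groups of ATP6V0D1 overlapped around the control values, at 27 to 181 counts a library. ATP6V0E1, the small e subunit of V0, had 394 and 361 CPM in clone 1, 431 and 336 in clone 2, 295 and 243 in clone 3, 326 and 356 with SMARCAL1 siRNA, 384 and 408 with control siRNA and 264 and 260 in the control. The ATP6V0E1 control libraries lay below every library of 4 groups and between those of clone 3, so clone 3, the clone with the most ATP6V0B, was the one nearest the control for ATP6V0E1.

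Among the V1 members, ATP6V1A, the catalytic subunit that splits ATP, had its highest values in the control. It had 42.2 and 63.9 CPM in clone 1, 47.8 and 37.9 in clone 2, 50.2 and 62.5 in clone 3, 66.7 and 47.5 with SMARCAL1 siRNA, 54.3 and 40.7 with control siRNA and 85.2 and 93.0 in the control. Both ATP6V1A control libraries were above the other 10, the reverse of ATP6V0B. The fitted log2 fold change of ATP6V1A was -0.82 for the clones against the control and -0.91 for control siRNA against the control, which share the control libraries, and 0.09 for the clones against control siRNA.

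ATP6V1B2, the non-catalytic nucleotide-binding subunit, separated the siRNA libraries from the rest. It had 650 and 542 CPM in clone 1, 594 and 526 in clone 2, 710 and 600 in clone 3, 855 and 1101 with SMARCAL1 siRNA, 947 and 1077 with control siRNA and 553 and 680 in the control. The 4 siRNA libraries of ATP6V1B2 were above the other 8, among which the clones overlapped the control. Its fitted log2 fold change was -0.75 for the clones against control siRNA and -0.03 for the clones against the control.

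ATP6V1F, a subunit of the central stalk, had 513 and 489 CPM in clone 1, 343 and 364 in clone 2, 546 and 641 in clone 3, 650 and 624 with SMARCAL1 siRNA, 608 and 823 with control siRNA and 417 and 474 in the control. Clone 2 was below the control and the other 4 groups were above it, with no overlap. Over all 8595 genes, 3370 did not overlap the control in clone 1, 3293 in clone 2, 3612 in clone 3 and 3143 with control siRNA. Of the 789 exon bases of ATP6V1F, 23.7% lie opposite KCP, which had at most 6 counts in any PLATE-seq library. ATP6V1D, the partner of ATP6V1F in the central stalk, had 129 and 144 CPM in clone 1, 177 and 109 in clone 2, 224 and 217 in clone 3, 121 and 127 with SMARCAL1 siRNA, 131 and 152 with control siRNA and 112 and 151 in the control. Clone 3 was above the other 10 libraries of ATP6V1D, and the rest overlapped.

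ATP6V1E1, part of the peripheral stalk that holds the catalytic head still, ran from 178 to 467 CPM with a median of 273 over the 12 libraries. The lowest and the highest ATP6V1E1 libraries were both outside the control, which had 228 and 283 CPM. ATP6V1H, the regulatory subunit that links the sectors, ran from 17.4 to 76.1 CPM with a median of 36.7, on 17 to 208 counts a library, and had 47.6 and 32.3 CPM in the control. The 4.37-fold range of ATP6V1H was next to that of ATP6V0B, and its replicates lay apart, with 24.4 and 63.2 CPM in clone 3 and 25.9 and 76.1 CPM with SMARCAL1 siRNA.

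**Figure D3:**
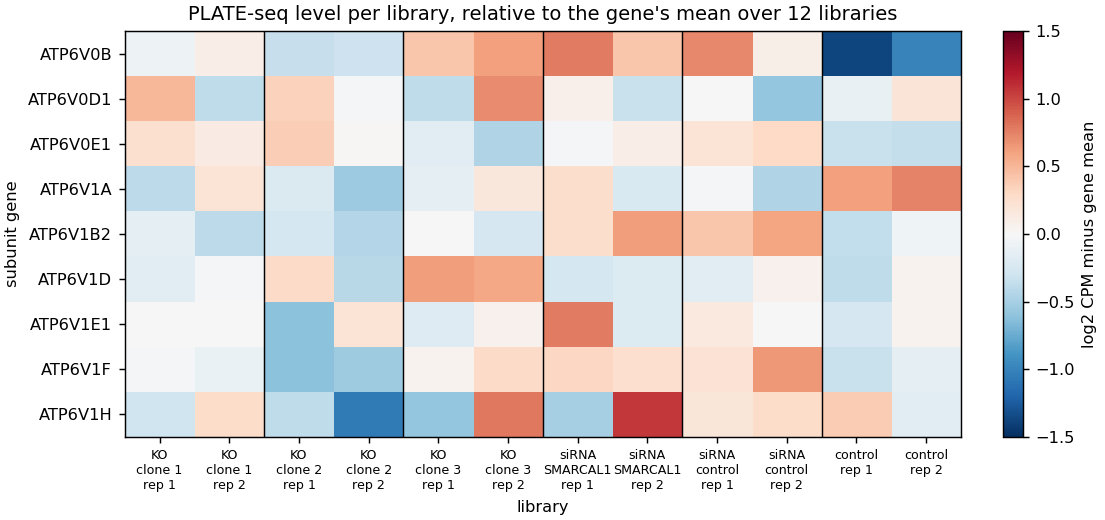
Level of the 9 measured members (rows) in the 12 PLATE-seq libraries (columns) as log2 CPM minus the mean of the gene over the libraries, blue below and red above. The 2 control columns on the right are the bluest for ATP6V0B and the reddest for ATP6V1A.

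Differences among the 3 knockout clones, which do not involve the control, were tested with edgeR's quasi-likelihood F test adjusted by Benjamini-Hochberg over all genes. None of the 9 members passed, while 61 of 8595 genes did (0.71%). Without adjustment, 3 members and 974 genes had a p under 0.05. The 3 members were ATP6V0B, with an adjusted p of 0.222, ATP6V1F, with 0.272, and ATP6V1D, with 0.401. The same knockout libraries and their spread entered the choice of ATP6V0B, so its unadjusted p is not independent of that choice. Relative to clone 1, the log2 difference of ATP6V0B was -0.35 in clone 2 and 0.50 in clone 3. ATP6V1F differed in the same directions, by -0.50 and 0.25. ATP6V1D differed by 0.07 in clone 2 and 0.69 in clone 3.

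SMARCAL1 siRNA against control siRNA, the pair that differs in the siRNA alone, changed none of the 9 members past the threshold in edgeR's quasi-likelihood test. Of 8595 genes 0 passed (0%), with 544 at an unadjusted p under 0.05 and none of the members among them, and DESeq2 called 13 genes and 0 members. ATP6V0B had 959 and 744 CPM with SMARCAL1 siRNA, against 923 and 594 CPM with control siRNA, and a log2 fold change of 0.17 (SE 0.254, 95% interval -0.35 to 0.69, adjusted p 0.956). The other 8 members had log2 fold changes from -0.22 for ATP6V0E1 to 0.30 for ATP6V1E1. In 2 of the 9 members, ATP6V0E1 and ATP6V1D, the groups did not overlap, against 37.4% of all genes. The intervals were wide, reaching from -0.79 to 1.25 for ATP6V1H, so a missed threshold does not show that the members were alike in the 2 groups. In simulated data this contrast recovered 11.3% of changed genes at a log2 change of 1 and 47.5% at 2. SMARCAL1 itself, with a log2 fold change of -6.14, did not pass.

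The TruSeq libraries tested knockout clone 1 against the control in an assay that played no part in the choice of members. None of the 10 members passed an adjusted p of 0.05 in edgeR's quasi-likelihood test, against 1089 of 17371 genes (6.27%), of which 688 were higher and 401 lower. Without adjustment, 2 members had a p under 0.05, ATP6V1A and ATP6V0E1, beside 3538 of the 17371 genes. DESeq2 called 0 members and 925 genes. In 4 of the 10, ATP6V0E1, ATP6V1A, ATP6V1B2 and ATP6V1D, the groups did not overlap, against 26.3% of all genes. The median log2 fold change of the members was -0.01, and that of all genes was -0.0044.

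ATP6V0B had 118, 199 and 187 CPM in knockout clone 1, against 143, 173 and 255 CPM in the control. The groups overlapped, and the log2 fold change was -0.18 (SE 0.236, 95% interval -0.72 to 0.36, adjusted p 0.742, edgeR). It became 0.02 without knockout replicate 1 and 0.10 without control replicate 3. Its position within each group followed the split on detected symbols. The knockout library with many detected symbols had 118 CPM, against 143 and 173 CPM for the controls with many, and the knockout libraries with few had 199 and 187 CPM, against 255 CPM for the control with few. With the side of the split as a covariate ATP6V0B was lower in the knockout, with a log2 fold change of -0.41 (SE 0.0596, adjusted p 7.37e-06), and within the sides the values were -0.42 for many and -0.40 for few. The fits within a side have 1 library in 1 arm and 1 residual degree of freedom, so their values are given without p. The covariate was tried because of the split seen in the libraries, and its cause was not tested.

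That fit called 4 of the 10 members and 3793 of 17371 genes (21.8%). The calls were ATP6V0B, ATP6V1A and ATP6V1F, which were lower in the knockout, and ATP6V0E1, which was higher. The fits within the sides leave 1 library in 1 arm, so their calls among the members are not counted. Over all genes these fits called 6.39% of 19204 genes with many detected symbols and 13.8% of 18265 genes with few. Those shares assume that the lone library varies like the others, and they support nothing. In PLATE-seq the same clone had a log2 fold change of 1.19 for ATP6V0B, above the TruSeq interval of either fit. The difference between the assays was not tested, and the TruSeq control and the PLATE-seq control are separate samples in the labels.

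ATP6V1A had 214, 231 and 234 CPM in knockout clone 1, against 261, 270 and 286 CPM in the control. The groups did not overlap, and the log2 fold change was -0.27 (SE 0.067, adjusted p 0.0524, edgeR), just short of the threshold. With the side as a covariate it was -0.31 (adjusted p 1.98e-05), and within the sides it was -0.32 for many and -0.30 for few. In PLATE-seq the log2 fold change of ATP6V1A in the same clone was -0.75, in the same direction. Control siRNA against that control gave -0.91, and the clones against control siRNA 0.09. The PLATE-seq direction of ATP6V1A was thus not particular to the knockout and is given as a description.

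ATP6V0E1 had 121, 109 and 109 CPM in knockout clone 1, against 99.6, 94.0 and 84.4 CPM in the control, again without overlap. Its log2 fold change was 0.29 (SE 0.0827, adjusted p 0.0838, edgeR), and 0.34 with the side as a covariate (adjusted p 2.46e-05). Within the sides it was 0.31 for many and 0.37 for few. In PLATE-seq the log2 fold change of ATP6V0E1 in clone 1 was 0.52, in the same direction. Control siRNA against that control gave 0.59, and the clones against control siRNA -0.23. This PLATE-seq value too is given as a description.

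The remaining 7 members had smaller or less steady differences. ATP6V1F had 34.6, 47.2 and 41.2 CPM in the knockout, against 42.7, 46.7 and 48.7 CPM in the control, a log2 fold change of -0.16 (adjusted p 0.489, edgeR) that was -0.24 with the side as a covariate (adjusted p 0.0298). Within the sides ATP6V1F had -0.38 for many and -0.14 for few. In PLATE-seq the log2 fold change of ATP6V1F in clone 1 was 0.17, in the opposite direction. ATP6V1B2 was at 94.1 to 104 CPM in the knockout and 106 to 109 CPM in the control, with a log2 fold change of -0.12, and ATP6V1D at 200 to 211 CPM in the knockout and 184 to 195 CPM in the control, with 0.11. Both missed the threshold with and without the covariate. ATP6V0C had a log2 fold change of 0.19, ATP6V1E1 0.07, ATP6V0D1 -0.01 and ATP6V1H -0.01, and their groups overlapped. The 95% intervals of ATP6V1B2, ATP6V1D, ATP6V1E1 and ATP6V1H lay between -0.28 and 0.27.

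**Figure D4:**
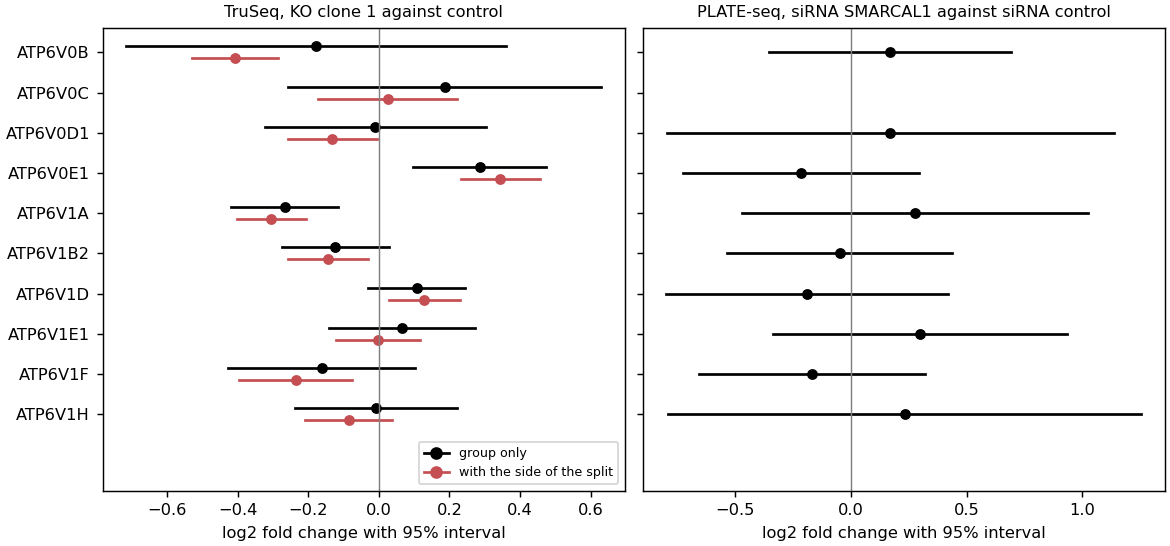
Log2 fold change (x axis) with its 95% interval for each member (y axis) in TruSeq knockout clone 1 against the control (left; black, group only; red, with the side of the split by detected symbols as a covariate) and in PLATE-seq SMARCAL1 siRNA against control siRNA (right). With the covariate the TruSeq intervals shrink, and ATP6V0B moves to -0.41. In the siRNA pair every interval spans 0.

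Levels of different members were compared in TruSeq as CPM per kilobase of exon. In knockout clone 1 the mean levels ran upward from 10.5 for ATP6V0D1 through 12.6 for ATP6V1B2, 15.8 for ATP6V1H, 21.1 for ATP6V0C, 25.4 for ATP6V1E1, 44.1 for ATP6V1A, 47.6 for ATP6V0B, 48.2 for ATP6V1D and 52.0 for ATP6V1F to 69.6 for ATP6V0E1. In the control ATP6V1A had 53.1, ATP6V0B 53.8, ATP6V0E1 57.1 and ATP6V1F 58.3 CPM per kilobase. The ATP6V0B libraries spanned 33.5 to 56.2 in the knockout and 40.3 to 72.1 in the control, so its place among these top members was not set apart from theirs. Exon length was the union over all annotated transcripts, which understates genes with long unused exons.

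The rest of the V-ATPase was read from 15 other subunit and accessory genes. In TruSeq 12 were tested and none passed, at log2 fold changes of -0.31 to 0.21 with a median of 0.03, and in the siRNA pair 9 were tested and none passed. ATP6V1G1, a peripheral stalk subunit, had 92.5 CPM per kilobase in the knockout and 92.4 in the control, above all 10 members in both groups. ATP6AP2, the accessory subunit also called the prorenin receptor, had 41.6 in the knockout and 39.4 in the control. The isoforms ATP6V0D2 and ATP6V1G3, known from kidney, were scarce, at 0 to 2 and 1 to 3 counts a TruSeq library.

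The counts of calls in the lists below stand beside 6.27% of all genes called in TruSeq, and nothing particular to a list is read from them. Of the 9 assembly factors and regulators 1 rose and none fell. It was DMXL2, a human counterpart of the yeast RAVE complex that rejoins V1 to V0, with 118, 125 and 115 CPM in knockout clone 1, against 78.3, 78.3 and 81.7 CPM in the control, a log2 fold change of 0.58 (SE 0.0655, adjusted p 0.00207, edgeR). The groups did not overlap. VMA21, which assembles V0 in the endoplasmic reticulum, had -0.11 and did not pass. Of the 14 genes of the Ragulator, Rag and mTORC1 machinery that meets the pump at the lysosome, 1 rose and none fell. It was RRAGD, a Rag GTPase, with 133, 138 and 148 CPM in the knockout, against 96.6, 92.3 and 103 CPM in the control (log2 fold change 0.52, adjusted p 0.00553).

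Of 51 lysosomal enzyme and membrane genes tested in TruSeq, 2 rose and 1 fell, a share near the 6.27% of all genes, with a median log2 fold change of 0.11 beside -0.0044 for all genes. CTSS, the cysteine protease cathepsin S, had 38.0, 39.5 and 42.6 CPM in the knockout, against 17.8, 19.9 and 17.8 CPM in the control (log2 fold change 1.11, adjusted p 0.000399). PPT1, which removes palmitate from proteins, fell by 0.52 on the log2 scale (-0.52, adjusted p 0.00317). None of the 3 tested genes of the TFEB family, whose products switch on lysosomal genes, passed. In the siRNA pair 0 genes passed in any of these lists, of 7 assembly, 36 lysosomal, 2 TFEB family and 12 Ragulator genes tested.

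The genes most like ATP6V0B over the 12 PLATE-seq libraries were found by Pearson's r of log2 CPM, as a description over libraries that share the low control pair. They were SMOX with 0.93, FANCB with 0.91, UBB with 0.91, TAB3 with 0.91 and UBAP1 with 0.90. SMOX and FANCB each had 1 count in each control library, so their low values there are at the limit of counting. UBB, a ubiquitin gene, had 117.8 to 194 CPM outside the control and 76.3 and 107 CPM in the control. In TruSeq none of the 5 passed in knockout clone 1 against the control, with log2 fold changes of 0.04 to 0.32. Among the members the r with ATP6V0B was 0.63 for ATP6V1F, 0.50 for ATP6V1B2, 0.43 for ATP6V1E1, 0.29 for ATP6V1D, 0.25 for ATP6V0E1, 0.14 for ATP6V1H, -0.03 for ATP6V0D1 and -0.40 for ATP6V1A. Among the other subunit and accessory genes measured it ran from -0.64 for ATP6AP2 to 0.75 for ATP6V1G1, which was above every member. Over the 6 TruSeq libraries r was 0.95 for ATP6V1H and 0.93 for ATP6V0D1, both near 0 in PLATE-seq. It was 0.84 for ATP6V1F, 0.81 for ATP6V1E1, 0.71 for ATP6V0C, 0.59 for ATP6V1A and 0.58 for ATP6V1B2. It was negative for ATP6V1D, at -0.63, for ATP6V0E1, at -0.70, and for ATP6V1G1, at -0.60. These TruSeq libraries share the split on detected symbols.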

How the data were processed

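The authors deposited 2 tables of raw counts by symbol, covering 18 libraries. The submitters' processing notes name STAR, HTSeq and hg38, without versions; annotation and strand setting are not given in the sources used here, so a gene and its opposite neighbour may share reads. TruSeq and PLATE-seq had separate fits (edgeR 4.0.16, R 4.3.3): filterByExpr (17371 genes kept in TruSeq, 8595 in PLATE-seq), TMM scaling, group as the only term, and the two-sided quasi-likelihood F test with Benjamini-Hochberg adjustment over all genes kept, at 0.05. The fits had 4 and 6 residual degrees of freedom. The 92 spike-in entries, at most 0.0534% of a PLATE-seq library, were left out. CPM are counts scaled to the TMM library size; 3 counts, the floor for a gene with none, are 0.165 to 0.278 CPM in TruSeq and 0.911 to 3.72 in PLATE-seq, covering counting error alone, because PCR copies are not separate molecules.

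The members and the gene lists were chosen with earlier results of these data known. Named genes were the members, listed genes past the threshold (up to 4 a list by smallest p in TruSeq), SMARCAL1, and the 5 genes most correlated with ATP6V0B in PLATE-seq; VMA21, ATP6V1G1, ATP6AP2, the scarce isoforms and the markers were named after their values were seen. A listed lysosomal gene past the threshold is not reported here. The labels call the replicates biological. Alternatives were RLE scaling, no filter, a replicate block, DESeq2 1.42.0, each library left out, only the groups compared, and the split of TruSeq libraries by detected symbols. The fitting code was tested on simulated data. Gene positions and exon lengths came from GENCODE release 29 by symbol, and promoters from RefSeq on GRCh38.p14.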

Additional observations from a re-analysis of the deposited data

Results flagged for a closer look

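ATP6V1F differed in direction between the knockout clones in PLATE-seq. Its log2 fold change against the control was 0.17 in clone 1, -0.33 in clone 2 and 0.41 in clone 3. Both libraries of clones 1 and 3 were above both control libraries, and both libraries of clone 2 were below them. Such a lack of overlap was common with 2 libraries a group. Against the control it held for 3370 of 8595 genes in clone 1, 3293 in clone 2 and 3612 in clone 3. The difference among the clones had an adjusted p of 0.272 in edgeR's quasi-likelihood F test and did not pass.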

How the results depend on the processing

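The 0 calls among the members in TruSeq stayed 0 under RLE scaling, no filter, DESeq2 and each library left out. They became 2 with the replicate block and 4 with the side of the split as a covariate. Fits within the libraries with many and few detected symbols were added after seeing the data. They have 1 library in 1 arm, so their calls among the members are not counted, and their calls over all genes support nothing. Calls over all genes, 1089, became 2387 with the replicate block, 3793 with the covariate, 2517 within the libraries with few symbols, and 199 to 1145 with a library left out (518 and 199 without control replicates 1 and 2, 369 and 309 without knockout replicates 2 and 3). The block called ATP6V0E1 (0.29, adjusted p 0.0105) and ATP6V1A (-0.27, adjusted p 0.00703). Replicate numbers were treated as names and not as pairs: same-numbered deviations correlated at 0.58, -0.27 and 0.38 in TruSeq and at -0.058 to 0.056 in PLATE-seq. In the siRNA pair the 0 calls over all genes became 22 with no filter, 13 with DESeq2, 1 with only the groups compared, and 0 to 2 with a library left out. The block left them at 0 and gave 64 calls among the clones, where 61 became 230 with no filter and 17 to 141 with a library left out (141 and 17 without clone 3 replicates 1 and 2). The 17 calls of the clones against the control became 83 with no filter, 46 with DESeq2 and 5 to 52 with a library left out (7 and 5 without control replicates 1 and 2, 52 without clone 3 replicate 1); the 1 call of control siRNA against the control became 35 with no filter and 0 to 4.

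ATP6V0B kept its direction with each library left out in the clones against the control (1.07 to 1.45), in control siRNA against the control (1.28 to 1.91) and in the clones against control siRNA (-0.66 to -0.0277). Values near 0 changed sign, none of them called. In TruSeq with no filter ATP6V0D1 had 0.0101 and ATP6V1H 0.0134, and ATP6V1E1 had -0.00204 with the covariate and -0.0391 within the libraries with few symbols. With a TruSeq library left out ATP6V0B ran from -0.35 to 0.10, ATP6V0C from -0.0232 to 0.38, ATP6V0D1 from -0.11 to 0.13 and ATP6V1H from -0.0803 to 0.0827. In the siRNA pair ATP6V0B ran from -0.12 to 0.53, ATP6V0D1 from -0.0945 to 0.48, ATP6V1B2 from -0.24 to 0.12, ATP6V1E1 from -0.28 to 0.71, ATP6V1F from -0.37 to 0.0647 and ATP6V1H from -0.72 to 0.83. The causes were not tested. Depth limits ATP6V0D1 and ATP6V1H in PLATE-seq, at as few as 27 and 17 counts a library.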

Other observations

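The ATP synthase of mitochondria, the other rotary ATPase of these cells, gave 16 tested genes in TruSeq, with a median log2 fold change of -0.05, of which 1 rose and 1 fell, beside 6.27% of all genes called. ATP5MF, a membrane subunit, rose in knockout clone 1, with 79.4, 86.3 and 90.0 CPM, against 58.2, 59.4 and 70.8 CPM in the control (log2 fold change 0.44, adjusted p 0.0305, edgeR). ATP5PO, the stalk subunit also called OSCP, fell, with 179, 188 and 185 CPM in the knockout, against 211, 245 and 235 CPM in the control (log2 fold change -0.32, adjusted p 0.0338). In the siRNA pair 16 were tested and none passed.

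SPARC, a mesenchymal marker listed to check the line, had 4.36, 4.06 and 6.16 CPM in knockout clone 1, against 86.4, 83.7 and 92.1 CPM in the control, a log2 fold change of -4.16 in TruSeq.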
